A study of Rattus norvegicus with 16 samples.

Results

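Nfkbia, Tsc22d3, Ddit4, Cdkn1a, Sgk1 and Zbtb16 are 6 genes whose transcription glucocorticoid hormone is known to raise, and they are described here in rat hippocampus after chronic mild stress. They were chosen by symbol among the 13888 genes with a messenger RNA probe on the array. Each of the 6 had 1 probe that could be named through its RefSeq target, and all 6 were among the 11205 genes tested.

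Glucocorticoids enter cells and bind the glucocorticoid receptor, which moves to the nucleus and raises or lowers transcription at response elements or through other transcription factors. The hippocampus carries both this receptor and the mineralocorticoid receptor, and it takes part in restraining the stress axis. Transcripts that hormone raises are widely used there as a readout of recent hormone action. Nfkbia encodes the inhibitor that holds NF-kappaB in the cytoplasm, and Tsc22d3 encodes GILZ, a leucine zipper protein known for anti-inflammatory actions of the hormone. Ddit4 encodes REDD1, a brake on the growth kinase complex mTORC1, and Cdkn1a encodes the cell cycle inhibitor p21. Sgk1 encodes a kinase that acts on ion channels and transporters, and Zbtb16 encodes PLZF, a transcriptional repressor with a BTB domain and zinc fingers.

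RNA came from hippocampus of male Sprague-Dawley rats of 250 g. Depression-susceptible, anxiety-susceptible and insusceptible rats had 8 weeks of chronic mild stress (CMS, a changing series of small stressors), and control rats had none. The labels give neither the sorting of stressed rats into these 3 groups, nor an age, nor the time between the last stressor and the dissection. Each group had 4 single-colour Agilent arrays, 16 in all. Levels are log2 of the processed probe signal relative to the array's own 75th percentile, so a level of 0 equals that percentile and a step of 1 is 2-fold.

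Between arrays of 1 group on 1 slide, the variance was 0.555 to 0.826 times that expected from noise between spots of a probe. A ratio of 1 means spot noise alone. For the 4 control arrays, which lie on 2 slides, the ratio was 4.767. Arrays of 1 group on 1 slide were therefore averaged and counted as 1 sample, which leaves 2 depression-susceptible, 1 anxiety-susceptible, 1 insusceptible and 2 control samples. SE and adjusted p rest on the difference between slides in the depression-susceptible and control groups, and the lone samples are assumed to vary like them. Nothing says that the arrays of a group are separate animals, so these values measure the spread between slides and not between rats. Depression-susceptible and control arrays shared slides 1 and 2, while the anxiety-susceptible arrays had slide 3 and the insusceptible ones slide 4 to themselves. Those slides were scanned on another day and had a lower 75th percentile of signal (1083 to 1259, against 2863 to 3348 on slides 1 and 2). For the anxiety-susceptible and insusceptible groups, group, slide and day cannot be told apart. On slides 1 and 2 the depression-susceptible arrays held positions 3 and 4 and the controls positions 1 and 2, so position and group cannot be told apart there.

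Markers of other tissues in the dissection moved with the groups. The 13 choroid plexus genes tested, which mark the tissue that makes cerebrospinal fluid, had a summed level of 40.1 to 46.6 times the array's 75th percentile signal in depression-susceptible arrays, 136 to 155 in anxiety-susceptible and 20.7 to 21.1 in insusceptible arrays, against 157 to 195 in control arrays. Against control, 13, 12 and 13 of them were lower and none higher in these 3 groups by limma's adjusted p over 6 samples, with median log2 differences of -3.74 in depression-susceptible samples, -1.93 in anxiety-susceptible samples and -4.14 in insusceptible samples. Ttr, which encodes transthyretin, made up much of the sum and was the 1 gene not lower in anxiety-susceptible samples (0.48, adjusted p = 0.111). Without Ttr the other 12 genes summed to 11.4 to 13.3 in depression-susceptible arrays, 23.9 to 24.7 in anxiety-susceptible arrays and 9.51 to 9.70 in insusceptible arrays, against 80.9 to 96.2 in control arrays. The 6 red blood cell genes tested summed to 24.1 to 27.0 in depression-susceptible arrays, against 1.38 to 1.42 in controls. They summed to 0.937 to 0.993 in anxiety-susceptible and 2.48 to 2.58 in insusceptible arrays. Against control, 4 were higher and 1 lower in depression-susceptible samples, and 3 higher and 1 lower in insusceptible samples. In anxiety-susceptible samples none was higher and 2 were lower. The 11 microglia and macrophage genes summed to 34.7 to 36.6, 30.9 to 32.3 and 33.3 to 34.2 in depression-susceptible, anxiety-susceptible and insusceptible arrays, against 44.3 to 48.9 in controls. In the same order, oligodendrocyte genes summed to 237 to 304, 280 to 291 and 258 to 265, against 311 to 390. Of the 11 tested, 0, 0 and 1 were lower and none higher by the adjusted p. Astrocyte genes summed to 190 to 245, 245 to 257 and 220 to 234, against 238 to 316. Endothelial and pericyte genes summed to 27.1 to 29.4, 24.6 to 24.9 and 28.6 to 30.1, against 27.4 to 31.0. Genes of neighbouring regions summed to 8.10 to 9.09, 5.84 to 6.08 and 6.35 to 6.54, against 9.18 to 9.74. Of the 7 tested, 0, 2 and 2 were lower and 1, 1 and 2 higher. Their median log2 level was -2.45 to -2.38, -2.54 to -2.37 and -2.83 to -2.72, against -3.41 to -3.24, and so higher than in control. Shares of all probes called are given with the counts of members below. Markers of the labelled tissue were present, with 8 or 9 of 9 tested hippocampal subfield genes and 9 or 10 of 10 neuronal genes well above background on each array, but their levels moved with the groups. The neuronal genes summed to 115 to 139, 108 to 112 and 115 to 118 in depression-susceptible, anxiety-susceptible and insusceptible arrays, against 142 to 169 in controls. Of them, 2 were lower and none higher in depression-susceptible samples against control (median difference -0.13). In anxiety-susceptible samples 6 were lower and none higher (-0.66), and in insusceptible samples 4 were lower and 1 higher (-0.53), against control. The subfield genes summed to 64.0 to 69.4 in depression-susceptible arrays, 50.5 to 52.6 in anxiety-susceptible arrays and 50.7 to 52.2 in insusceptible arrays, against 70.6 to 83.3 in control arrays, and 1, 1 and 2 of the 9 passed as lower. In whole tissue, fewer cells of a type and less RNA per cell cannot be told apart.

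**Figure D1:**
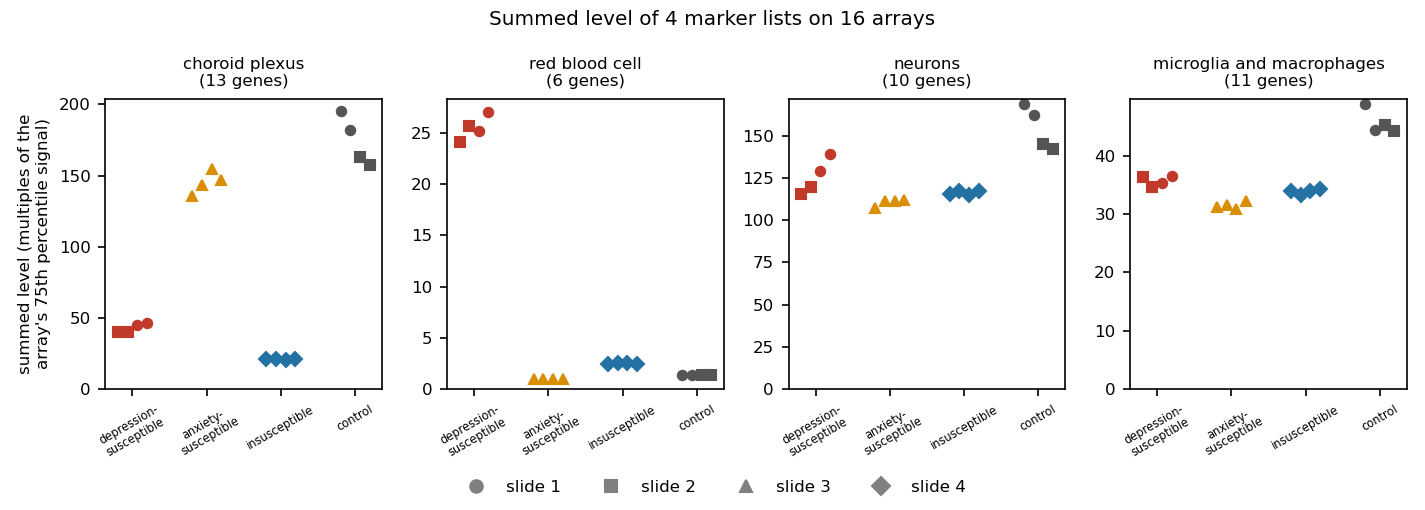
Summed level of the tested genes of 4 marker lists on each of the 16 arrays, in multiples of the array's 75th percentile signal, with axes that start at 0. Groups run from depression-susceptible to control and symbols mark the slide. The choroid plexus sum, much of it Ttr, was 157 to 195 in control arrays. It was at most 46.6 in depression-susceptible and 21.1 in insusceptible arrays and 136 to 155 in anxiety-susceptible arrays. The red blood cell sum was highest in depression-susceptible arrays (24.1 to 27.0).

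Promoter sequences are shown for the 3 members with a single listed start, because the results turn on them: Nfkbia and Ddit4 were lower in all 3 stressed groups, and Cdkn1a passed in depression-susceptible against control but in no other comparison. Each is the 250 bases before and the first 50 bases after the transcription start in RefSeq's GRCr8 table, printed 5′ to 3′ on the gene's strand. Capitals mark the first 50 transcribed bases and, in Nfkbia, a match to a kappaB motif. The Nfkbia window lies on the minus strand of chromosome 6 at chr6:78597023-78597322, Ddit4 on the minus strand of chromosome 20 at chr20:28436988-28437287, and Cdkn1a on the plus strand of chromosome 20 at chr20:7150682-7150981.
Nfkbia: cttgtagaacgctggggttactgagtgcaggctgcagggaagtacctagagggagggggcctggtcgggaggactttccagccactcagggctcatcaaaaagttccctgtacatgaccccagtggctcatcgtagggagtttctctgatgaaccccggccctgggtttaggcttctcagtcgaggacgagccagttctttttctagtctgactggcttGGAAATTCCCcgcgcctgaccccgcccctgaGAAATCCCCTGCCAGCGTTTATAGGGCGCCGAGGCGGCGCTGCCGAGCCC
Ddit4: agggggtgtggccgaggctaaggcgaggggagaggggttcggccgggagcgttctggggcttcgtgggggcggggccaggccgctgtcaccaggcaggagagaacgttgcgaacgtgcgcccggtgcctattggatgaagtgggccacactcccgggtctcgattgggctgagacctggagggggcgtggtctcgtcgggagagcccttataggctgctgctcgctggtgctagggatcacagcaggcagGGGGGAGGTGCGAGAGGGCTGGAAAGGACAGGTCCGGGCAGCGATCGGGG
Cdkn1a: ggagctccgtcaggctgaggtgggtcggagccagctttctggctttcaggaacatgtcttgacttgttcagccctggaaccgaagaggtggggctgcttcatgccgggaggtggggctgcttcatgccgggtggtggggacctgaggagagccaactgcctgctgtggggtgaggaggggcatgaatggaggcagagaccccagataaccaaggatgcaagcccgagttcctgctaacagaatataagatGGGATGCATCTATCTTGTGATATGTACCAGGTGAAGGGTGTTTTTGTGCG
The table held 9 windows for 5 members, 3 each for Sgk1 and Tsc22d3 and 1 each for Nfkbia, Ddit4 and Cdkn1a, and Zbtb16 had no entry. The kappaB motif GGGANNTTCC, searched on both strands, occurred in 1 of the 9 windows, 31 bases before the Nfkbia start as GGAAATTCCC, and in 1.3% of the 33469 windows of the table. The glucocorticoid receptor half-site AGAACA occurred on neither strand in any of the 9 windows and in 20.7% of all windows. Windows of this length hold only the bases next to the start, so nothing is drawn from a motif that is not in them.

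Among the 6 members, Nfkbia showed the largest differences from control. Its level was 0.46, 0.68, 0.51 and 0.59 on the depression-susceptible arrays and 0.21, 0.10, 0.21 and 0.26 on the anxiety-susceptible arrays. On the insusceptible arrays it was 0.37, 0.40, 0.37 and 0.41, against 1.79, 1.56, 1.55 and 1.73 on the control arrays. Every stressed array lay below every control array, and the anxiety-susceptible arrays were the lowest. The share of all probes with such a gap was not counted, here or for the members below. With all 16 arrays as samples, 49.9%, 72% and 73.1% of all probes passed in depression-susceptible, anxiety-susceptible and insusceptible against control. Relative to control, Nfkbia fell to 46.6% of the control signal in depression-susceptible samples (log2 difference -1.10, SE 0.07, limma adjusted p = 0.00592). It fell to 36.2% in the anxiety-susceptible sample (-1.47, SE 0.09, adjusted p = 0.0066) and to 41.4% in the insusceptible sample (-1.27, SE 0.09, adjusted p = 0.0076). Within slides shared with control, the depression-susceptible difference was -1.12 on slide 1 and -1.08 on slide 2. Only 0.819% of the 17708 probes tested had a lower difference in that comparison.

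Tsc22d3, the GILZ gene, gave the least scatter among control arrays. It read 0.79, 0.80, 0.715 and 0.79 on depression-susceptible arrays, 0.32, 0.29, 0.35 and 0.41 on anxiety-susceptible arrays and 0.73, 0.73, 0.81 and 0.89 on insusceptible arrays, against 1.39, 1.36, 1.38 and 1.34 on control arrays. Stressed and control arrays did not overlap, depression-susceptible and insusceptible arrays did, and anxiety-susceptible arrays lay below all others. The difference from control was -0.60 in depression-susceptible (SE 0.07, limma adjusted p = 0.0231), -1.02 in anxiety-susceptible (SE 0.09, adjusted p = 0.0105) and -0.58 in insusceptible samples (SE 0.09, adjusted p = 0.023). Tsc22d3 thus stood at 66.1% of the control signal in depression-susceptible samples, 49.2% in anxiety-susceptible samples and 66.9% in insusceptible samples. The insusceptible call depended on the scaling: with the 75th percentile taken over probes well above background on all arrays it was -0.37 (adjusted p = 0.0592).

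For Ddit4, the mTORC1 brake, the level was 3.02, 3.12, 2.93 and 3.06 in depression-susceptible arrays, 3.10, 3.06, 3.10 and 3.17 in anxiety-susceptible arrays and 3.18, 3.16, 3.14 and 3.14 in insusceptible arrays, against 3.92, 3.89, 3.80 and 3.79 in control arrays. The 3 stressed groups lay close together and apart from control. Ddit4 fell to 56.8% of control in depression-susceptible samples (-0.82, SE 0.09, limma adjusted p = 0.0165). The anxiety-susceptible sample stood at 59.7% (-0.74, SE 0.11, adjusted p = 0.0195) and the insusceptible sample at 61.8% (-0.69, SE 0.11, adjusted p = 0.0224). These last 2 calls were lost under quantile normalization, where the differences were -0.25 (adjusted p = 0.163) and -0.20 (adjusted p = 0.245), while the depression-susceptible difference was -0.57 (adjusted p = 0.0422).

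Sgk1 varied more between the control slides than the other members above background. It read 2.85, 2.92, 3.12 and 3.13 on depression-susceptible, 2.67, 2.82, 2.76 and 2.69 on anxiety-susceptible and 3.33, 3.32, 3.30 and 3.30 on insusceptible arrays, against 4.10, 3.93, 3.76 and 3.65 on control arrays. Every stressed array was below every control array, the anxiety-susceptible arrays lowest and the insusceptible arrays highest of the stressed ones. Sgk1 fell to 45.8% of control in the anxiety-susceptible sample (-1.13, SE 0.19, limma adjusted p = 0.0256). In depression-susceptible samples the difference was -0.86 (SE 0.16), which missed the threshold (adjusted p = 0.0526) and passed it with slide as a block (adjusted p = 0.00592). The block adds a slide term to the 4 group means of the 6 samples, so less is left from which to estimate each probe's spread. Slide 1 lay above slide 2 in depression-susceptible and control samples, and the difference was -0.89 on slide 1 and -0.82 on slide 2. The depression-susceptible difference of Sgk1 also passed under the 4 other scalings, at -0.84 to -0.60. In the insusceptible sample it was -0.55 (SE 0.19, adjusted p = 0.0997), and -0.05 under quantile normalization.

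Cdkn1a, the p21 gene, had another pattern. Its level was 0.11, 0.16, 0.09 and 0.14 on depression-susceptible arrays, while anxiety-susceptible arrays read 0.70, 0.73, 0.66 and 0.66, insusceptible arrays 0.70, 0.73, 0.71 and 0.67, and control arrays 0.62, 0.77, 0.74 and 0.75. The depression-susceptible arrays lay below all others, and the other 3 groups overlapped. Cdkn1a fell to 66% of control in depression-susceptible samples (-0.60, SE 0.07, limma adjusted p = 0.0237), with differences of -0.58 on slide 1 and -0.62 on slide 2. The differences from control were -0.04 in anxiety-susceptible (SE 0.09, adjusted p = 0.781) and -0.02 in insusceptible samples (SE 0.09, adjusted p = 0.884), and their sign turned under quantile normalization (0.06 in both). Depression-susceptible arrays are also those with the high red blood cell signal given above, and its part in the Cdkn1a difference was not tested.

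Zbtb16 lay near the detection limit. Its probe was well above background on 3 of 4 depression-susceptible, 2 of 4 anxiety-susceptible, 1 of 4 insusceptible and 3 of 4 control arrays. Levels ran from -6.92 to -6.23 in depression-susceptible arrays, from -6.05 to -5.87 in anxiety-susceptible and from -6.14 to -5.64 in insusceptible arrays, against -6.82 to -6.28 in control arrays. Differences from control were -0.08 in depression-susceptible (SE 0.25, limma adjusted p = 0.867), 0.53 in anxiety-susceptible (SE 0.30, adjusted p = 0.241) and 0.66 in insusceptible samples (SE 0.30, adjusted p = 0.167), so no group passed the test. Under normexp background correction the anxiety-susceptible difference was 0.91 (adjusted p = 0.00706) and the insusceptible one 1.03 (adjusted p = 0.00489). The dimmest signal called well above background was -7.07 to -5.66 on slides 3 and 4, against -7.865 to -7.15 on slides 1 and 2, and its part in these values was not tested.

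**Figure D2:**
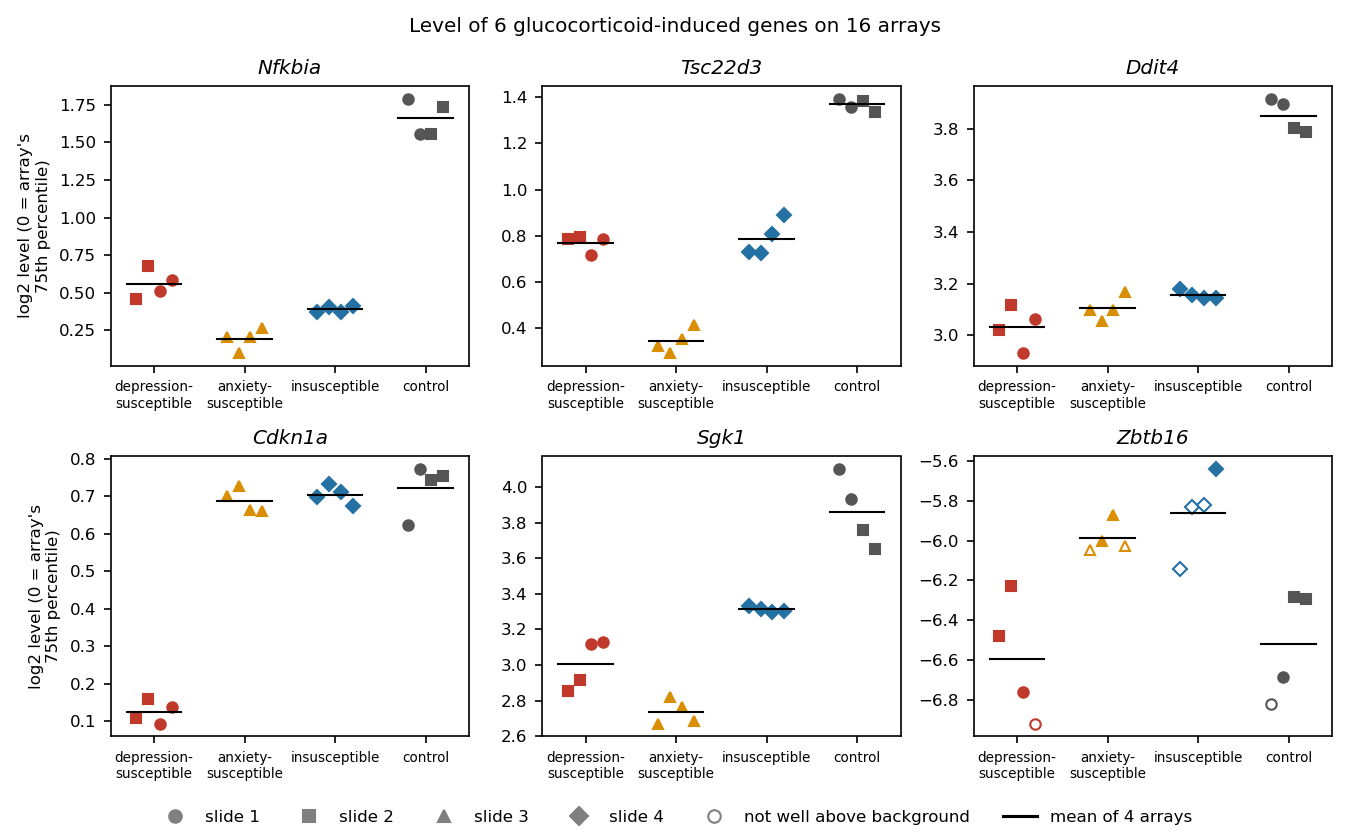
Level of the 6 members on each array, as log2 of the processed signal relative to the array's 75th percentile, in depression-susceptible, anxiety-susceptible, insusceptible and control arrays. Points are arrays, symbols are slides, open points are not well above background and bars are means of 4 arrays. Nfkbia, Tsc22d3, Ddit4 and Sgk1 are lower on all 12 stressed arrays than on the 4 control arrays, while for Cdkn1a this holds for the 4 depression-susceptible arrays, and Zbtb16 lies at or below -5.64 throughout.

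Counted over the members, 4 of 6 fell and none rose in depression-susceptible against control samples (Nfkbia, Ddit4, Cdkn1a and Tsc22d3), where 2.93% of all probes tested were lower and 6.84% higher. With slide as a block, which these groups share, Sgk1 made it 5 of 6 lower, beside 20.2% of all probes lower and 17.4% higher. In anxiety-susceptible against control, 4 of 6 fell (Nfkbia, Sgk1, Tsc22d3 and Ddit4) and none rose, beside 18.6% of all probes lower and 12.5% higher. In insusceptible against control, 3 of 6 fell (Nfkbia, Ddit4 and Tsc22d3) and none rose, beside 15.3% lower and 15.1% higher. The members' median difference was -0.71, -0.88 and -0.56 in these comparisons, against -0.03, -0.09 and -0.02 over all probes. The 3 comparisons share the 2 control samples, so a shift of those samples would appear in each. Choroid plexus genes were lower than control in all 3 stressed groups. The summed neuronal, hippocampal subfield, microglial, oligodendrocyte and neighbouring-region signal was lower too, as given above. Few oligodendrocyte genes were called, and neighbouring-region genes were called in both directions. The part of these tissue and cell signals in the members' differences was not tested. limma's F test over the 4 group means called 5 of 6 members, all but Zbtb16, beside 24.3% of all probes. A fit with 1 sample left out has less from which to estimate the spread of every probe. The share of all probes called in such fits is not given here, so the members' losses cannot be set against it. Without either depression-susceptible sample no member passed in depression-susceptible against control, and without either control sample only Nfkbia did (adjusted p = 0.0374 and 0.0381), although the differences moved little (Nfkbia between -1.12 and -1.085, Cdkn1a between -0.62 and -0.57). For anxiety-susceptible against control, 2 members (Nfkbia and Tsc22d3) passed without control slide 1, and Sgk1 passed beside them without control slide 2. Nfkbia was the 1 member that passed in insusceptible against control without control slide 1, and likewise without slide 2.

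**Figure D3:**
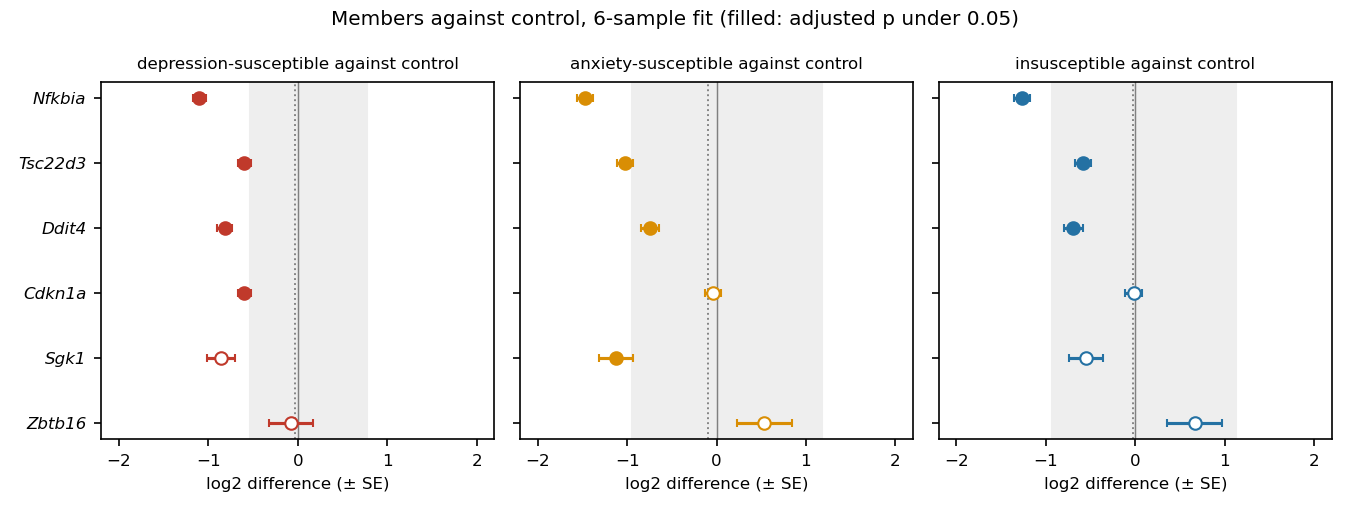
Log2 difference from control of each member in the 6-sample fit, with SE as bars, for depression-susceptible, anxiety-susceptible and insusceptible samples. Filled points passed an adjusted p of 0.05, the shaded band spans the 5th to 95th percentile of all probes tested and the dotted line is their median. Nfkbia lies left of the band in all 3 panels (-1.10, -1.47 and -1.27). In the depression-susceptible panel Tsc22d3 and Cdkn1a (both -0.60), Ddit4 (-0.82) and Sgk1 (-0.86) lie left of it too. Tsc22d3 (-1.02) and Sgk1 (-1.13) do so in the anxiety-susceptible panel.

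The choice of scaling moved the comparisons that cross slides. Taking the 75th percentile over probes well above background on all arrays raised the median of all probes by 0.22 in anxiety-susceptible and 0.21 in insusceptible against control, and by 0.07 in depression-susceptible against control. Of the probes called, 31.8% were then lower in anxiety-susceptible and 26.3% in insusceptible samples than in control, where the main scaling gave 59.8% and 50.4%. Normexp background correction gave 36.6% and 32.1%, with medians raised by 0.20 and 0.17. Relative to the median of all probes, Nfkbia stood at -1.37 and Ddit4 at -0.65 in anxiety-susceptible against control under both percentile scalings, because these differ by a constant per array. Nfkbia passed as lower in all 3 groups under each of the 5 scalings, with differences from -1.12 to -1.01 in depression-susceptible samples, -1.47 to -1.24 in anxiety-susceptible samples and -1.27 to -1.06 in insusceptible samples. The differences of Ddit4 and Sgk1, whose probes gave a stronger signal than 90.7% and 90.3% of probes tested, shrank under quantile normalization and in the deposited value table, whose columns have the same median.

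**Figure D4:**
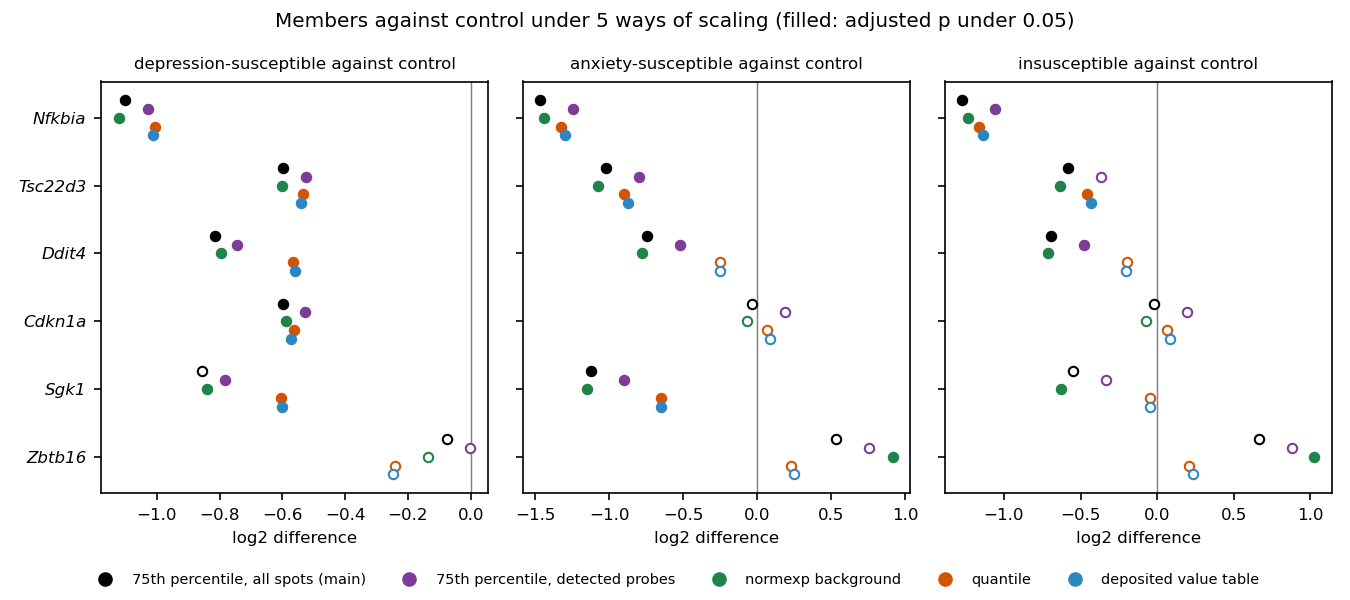
Log2 difference from control of each member under 5 ways of scaling, for depression-susceptible, anxiety-susceptible and insusceptible samples, with filled points at an adjusted p under 0.05. Nfkbia is filled and left of -1 throughout, whereas Ddit4 in the anxiety-susceptible panel ranges from -0.78 with normexp to -0.25 with quantile normalization.

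Stressed groups were also set against each other, and each of these comparisons crosses slides. Behavioural outcome after the same stress therefore cannot be told apart from slide in them. Those with the depression-susceptible group also cross scan days. No member passed limma's adjusted p over 6 samples in any of the 3 comparisons. In depression-susceptible against insusceptible samples 0.00565% of probes were lower and 0.0678% higher, in anxiety-susceptible against insusceptible 0.0113% and 0.0791%, and in anxiety-susceptible against depression-susceptible 0.152% and 0.119%. At an unadjusted p under 0.05 the members numbered 1, 1 and 3 of 6 in these comparisons, beside 30.5%, 11.4% and 32.8% of all probes. With all 16 arrays as samples 5, 3 and 5 of 6 passed, beside 61.9%, 36.5% and 63% of all probes, and with 6 members nothing is read from these counts. The largest of these differences in a member well above background was that of Cdkn1a, at -0.58 in depression-susceptible against insusceptible (SE 0.09, adjusted p = 0.0803) and 0.56 in anxiety-susceptible against depression-susceptible (SE 0.09, adjusted p = 0.0591). Under quantile normalization Cdkn1a passed in both. Between anxiety-susceptible and insusceptible samples, Sgk1 differed by -0.58 (SE 0.22, adjusted p = 0.457), Tsc22d3 by -0.44 (SE 0.10, adjusted p = 0.288) and Nfkbia by -0.20 (SE 0.10, adjusted p = 0.592). A p that misses the threshold with 1 sample a group does not show that the groups are alike.

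Other genes known to be raised by glucocorticoids were counted from a list of 47, of which 41 had a probe and 39 were tested. In depression-susceptible against control the number called depended on the block. With slide as a block 17 of 39 (43.6%) were lower and 3 (7.69%) higher, beside the 20.2% and 17.4% of all probes given above. That fit leaves less from which to estimate each probe's spread, as given for Sgk1. Without the block none was lower by the adjusted p and 1 (2.56%) was higher, beside 2.93% and 6.84% of all probes. At an unadjusted p under 0.05, 14 were lower and 2 higher, beside 29.9% of all probes in either direction. With 16 arrays 26 were called in either direction, beside 49.9% of all probes. The higher gene, Tgm2, a transglutaminase, rose by 0.91 (SE 0.08, adjusted p = 0.0124, named after its value was seen). In anxiety-susceptible against control 11 of 39 (28.2%) were lower and 1 (2.56%) higher, beside 18.6% and 12.5% of all probes. In insusceptible against control 9 (23.1%) were lower and 4 (10.3%) higher, beside 15.3% and 15.1%. The list's median difference was -0.21, -0.23 and -0.19 in the 3 comparisons, against -0.03, -0.09 and -0.02 over all probes. Pdk4, a kinase that turns off pyruvate dehydrogenase, was -1.58 in anxiety-susceptible against control (SE 0.25, adjusted p = 0.0233) but -0.10 under normexp. Rhob, a small GTPase, fell by 1.17 (SE 0.22, adjusted p = 0.0298), Klf9, a transcription factor, fell by 1.06 (SE 0.12, adjusted p = 0.0138) and Mt1, a metallothionein, fell by 0.80 (SE 0.12, adjusted p = 0.0211). Quantile normalization gave -0.64 for Rhob and -0.31 for Mt1. Fkbp5, the receptor chaperone that is among the best known hormone-induced genes in brain, differed from control by -0.26, 0.08 and 0.40 in depression-susceptible, anxiety-susceptible and insusceptible samples (adjusted p = 0.215, 0.67 and 0.0889). Fkbp5 thus did not pass in any group under the main scaling. Quantile normalization gave -0.11, 0.43 and 0.77 for Fkbp5 in these groups, and normexp gave -0.21, 0.07 and 0.39. The receptor's action on the 6 members is background knowledge that these arrays did not measure.

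The receptors themselves were tested with the chaperones and enzymes that serve them, 10 genes in all. Nr3c1, the glucocorticoid receptor, differed by 0.06, -0.33 and -0.23 in depression-susceptible, anxiety-susceptible and insusceptible samples against control (adjusted p = 0.716, 0.0941 and 0.182), and the last 2 values turned positive under quantile normalization (0.05 and 0.15). Nr3c2, the mineralocorticoid receptor, fell by 0.84 in anxiety-susceptible (SE 0.12, adjusted p = 0.0206) and by 0.89 in insusceptible samples (SE 0.12, adjusted p = 0.019), and stood at -0.29 in depression-susceptible samples (adjusted p = 0.161). Under quantile normalization the Nr3c2 difference was -0.35 in anxiety-susceptible, -0.40 in insusceptible and -0.02 in depression-susceptible samples. The remaining calls were of Hsd11b2, the enzyme that inactivates the hormone, named after its values were seen, at -0.46 in depression-susceptible and -1.09 in insusceptible against control (adjusted p = 0.0471 and 0.0107), a dim probe that read 0.45 under normexp in the insusceptible comparison. With slide as a block, 3 of the 10 (30%) were lower and none higher in depression-susceptible against control, beside 20.2% and 17.4% of all probes.

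Around Nfkbia, 19 genes of the NF-kappaB pathway were tested. In depression-susceptible against control 5 (26.3%) rose and none fell, beside 6.84% of all probes higher and 2.93% lower. With slide as a block 8 (42.1%) rose and none fell, beside 17.4% higher and 20.2% lower. Nfkbia itself was lower, and a link between its level and these genes was not tested. Bcl3, a nuclear partner of NF-kappaB, rose by 1.85 (SE 0.10, adjusted p = 0.00446), the cytokine Il1b by 1.16 (SE 0.10, adjusted p = 0.00971), the chemokine Cxcl1 by 0.98 (SE 0.09, adjusted p = 0.0134) and Birc3, an inhibitor of cell death, by 0.49 (SE 0.08, adjusted p = 0.0377). Several of these probes are dim, and under normexp the values were 1.22, 0.60, 0.33 and 0.21. In anxiety-susceptible against control 5 (26.3%) rose and 1 (5.26%) fell, beside 12.5% of all probes higher and 18.6% lower. In insusceptible against control 4 (21.1%) rose and 2 (10.5%) fell, beside 15.1% higher and 15.3% lower. Cxcl1 was among those that rose in both, by 0.87 (adjusted p = 0.0179) and 0.78 (adjusted p = 0.0216), or 0.55 and 0.32 under quantile normalization. Of the 2 that fell in insusceptible samples, named after their values were seen, Ccl2 read -0.53 and Tnf -0.39, and both turned sign under normexp (0.46 and 0.58). Lower microglial and macrophage signal and, in depression-susceptible arrays, higher red blood cell signal moved with these groups, and their part was not tested.

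For mTORC1 control, the pathway of Ddit4, none of 17 genes passed in depression-susceptible against control, beside 2.93% of all probes lower and 6.84% higher. None had an unadjusted p under 0.05, beside 29.9% of all probes. With slide as a block 2 (11.8%) were lower and none higher, beside 20.2% and 17.4% of all probes. With 16 arrays 5 passed, beside 49.9% of all probes. Txnip, a thioredoxin-binding protein, fell by 0.87 in anxiety-susceptible against control (SE 0.14, adjusted p = 0.0246) and Hif1a, the oxygen-regulated transcription factor, fell by 0.83 (SE 0.13, adjusted p = 0.0214). Tsc1 and Tsc2, whose products form the complex through which REDD1 acts on mTORC1, rose by 0.69 (SE 0.13, adjusted p = 0.0309) and 0.49 (SE 0.09, adjusted p = 0.0286). Quantile normalization gave -0.50 for Txnip, -0.55 for Hif1a, 0.36 for Tsc1 and 0.86 for Tsc2. In insusceptible against control the counts were again 2 lower and 2 higher (11.8% each). Over all probes 18.6% were lower and 12.5% higher in anxiety-susceptible, and 15.3% lower and 15.1% higher in insusceptible against control.

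Cell cycle and p53 target genes, the company of Cdkn1a, numbered 18 tested. In depression-susceptible against control 1 fell, the inhibitor gene Cdkn1c (p57), by 1.30 (SE 0.10, adjusted p = 0.00743, named after its value was seen there), and with slide as a block 2 were lower and 3 higher. Cdkn1c was lower too in anxiety-susceptible (-1.29, SE 0.12, adjusted p = 0.011) and insusceptible samples (-1.35, SE 0.12, adjusted p = 0.0105). Anxiety-susceptible against control gave 5 lower and 1 higher. Among them Cdkn2c fell by 0.85 (adjusted p = 0.0152), the cyclin gene Ccnd1 by 0.64 (adjusted p = 0.0295) and the stress sensor Gadd45a by 0.56 (adjusted p = 0.0241). Insusceptible against control gave 5 lower and none higher. Over all probes 2.93%, 18.6% and 15.3% were lower and 6.84%, 12.5% and 15.1% higher in depression-susceptible, anxiety-susceptible and insusceptible against control. With slide as a block 20.2% were lower and 17.4% higher in depression-susceptible against control.

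The kinase family, partners and substrates of Sgk1 gave 11 tested genes and no call in depression-susceptible against control, beside 2.93% of all probes lower and 6.84% higher. At an unadjusted p under 0.05 there were 3, beside 29.9% of all probes. With slide as a block 4 were lower and none higher, beside 20.2% and 17.4%. With 16 arrays 6 passed, beside 49.9%, and with 11 genes nothing is read from these counts. Scnn1b, a subunit of the epithelial sodium channel whose surface level the kinase raises, rose by 1.11 (SE 0.14, adjusted p = 0.0172) in anxiety-susceptible and by 1.12 (SE 0.14, adjusted p = 0.017) in insusceptible against control. Among 8 relatives and partners of GILZ, none passed in depression-susceptible against control, and 2 had an unadjusted p under 0.05. With slide as a block 1 was lower and 1 higher, and with 16 arrays 5 passed. The shares of all probes are those just given for this comparison. Fos, an AP-1 subunit, rose by 1.01 in anxiety-susceptible against control (SE 0.15, adjusted p = 0.0218) and Hras, a small GTPase, fell by 0.52 (SE 0.10, adjusted p = 0.0293). In insusceptible against control 2 of the 8 (25%) fell, beside 15.3% of all probes.

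Relatives and corepressors of PLZF numbered 11 tested. Against control, 2 fell in depression-susceptible samples (4 with slide as a block), 6 fell in anxiety-susceptible samples and 4 fell in insusceptible samples, and none rose. Over all probes 2.93% (20.2% with the block), 18.6% and 15.3% were lower. Higher were 6.84% (17.4% with the block), 12.5% and 15.1%, so with 11 genes nothing is read from the absence of higher calls. Zbtb33, the methyl-DNA binding protein Kaiso, was -0.75 (SE 0.10, adjusted p = 0.0265), -2.02 (SE 0.12, adjusted p = 0.0066) and -1.39 (SE 0.12, adjusted p = 0.0105) in these groups. Zbtb18, a transcriptional repressor of neurons, was -0.68 (SE 0.11, adjusted p = 0.0428), -0.97 (SE 0.14, adjusted p = 0.0193) and -0.90 (SE 0.14, adjusted p = 0.022). Under normexp, Zbtb33 was -1.20 in anxiety-susceptible and -0.84 in insusceptible samples, and Zbtb18 was -0.65 and -0.63.

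**Figure D5:**
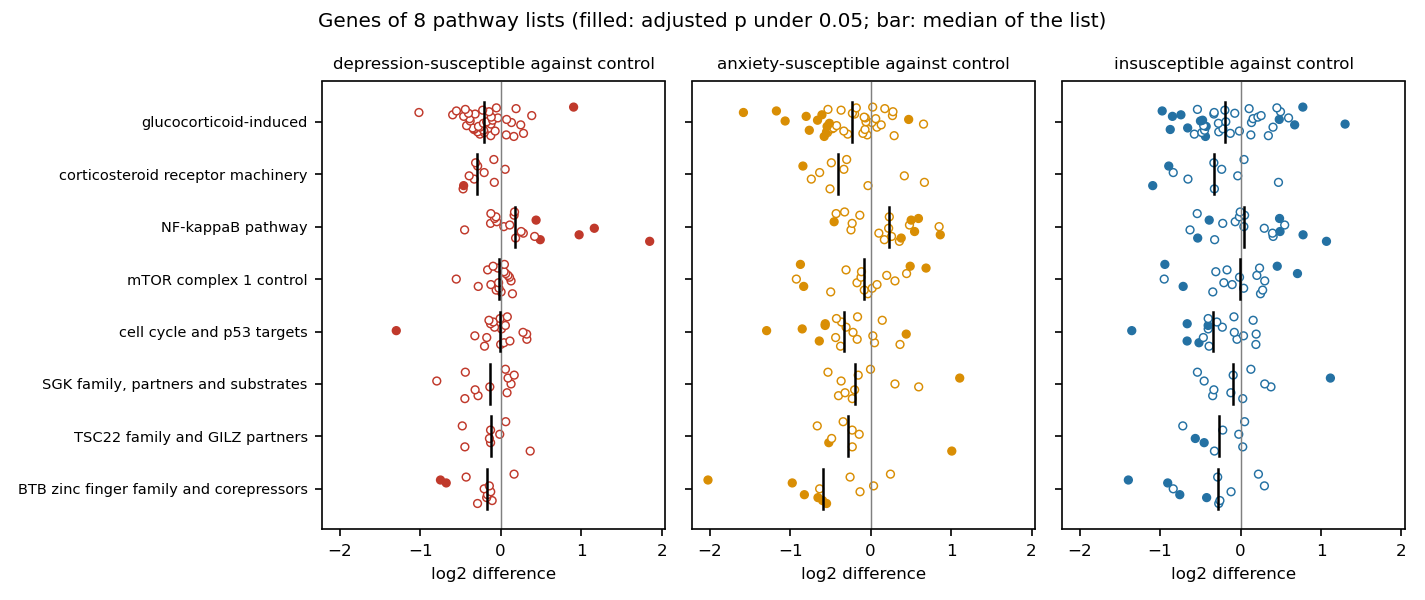
Log2 difference from control of each tested gene in 8 pathway lists, for depression-susceptible, anxiety-susceptible and insusceptible samples, with filled points at an adjusted p under 0.05 and a bar at each list's median. The other glucocorticoid-induced genes centre at -0.21, -0.23 and -0.19, and the NF-kappaB pathway has 5 filled points on the higher side in the first panel, led by Bcl3 at 1.85.

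Likeness of pattern was measured as the root mean square distance over the 6 samples after each gene was centred on its control mean, among 11204 other genes. Closest to Nfkbia were Plbd1 (0.08), Fscn2 (0.13) and Pank3 (0.14), and closest to Tsc22d3 were Frzb (0.05), Spidr (0.08) and Tpp1 (0.08). Ddit4 was nearest to Gpx1 (0.07), Cfap300 (0.08) and Tmem116 (0.09), and Cdkn1a to Or4k77 (0.04), Ifit3 (0.07) and Nat2 (0.08). For Sgk1 the distances were larger, with Frk at 0.12, Psma6 at 0.16 and Rab19 at 0.17. Zbtb16, near background, was closest to Lkaaear1 (0.06), Loxl2 (0.07) and RT1-DOb (0.08). Between members, Tsc22d3 and Ddit4 were 0.18 apart, Tsc22d3 and Sgk1 0.19 and Ddit4 and Sgk1 0.20. Other genes lay nearer in each case. Counted from Tsc22d3, Ddit4 ranked 232 and Sgk1 337 among the 11204 genes. From Ddit4, Tsc22d3 ranked 85 and Sgk1 160, and from Sgk1, Tsc22d3 ranked 20 and Ddit4 26. Cdkn1a was 0.42 or more from every other member.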

How the data were processed

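Per the labels, hippocampal RNA was depleted of ribosomal RNA, and labelling with Cy3 used random priming. The authors' deposited scanner files hold an intensity per spot, from which Agilent Feature Extraction had subtracted the background, per the file headers. The deposited value table holds log2 values and served as an alternative: its 24484 matched probes had Spearman correlations of 0.996 to 1.000 with the processed signal, and each column has a median of 7.50. No source used here names its software, and the files place no probes on the genome.

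Control spots and outlier spots (488 to 998 an array) were dropped and the spots of a probe averaged as log2 of the processed signal minus the array's 75th percentile. RefSeq targets were named through a table of GRCr8, used for names only (14274 of 15321 messenger RNA probes matched). The array held 24684 probes. Those well above background on at least 4 of 16 arrays numbered 17880, and the 17708 with a value in every sample were tested. Arrays had 62.1% to 74.0% of their probes well above background and 0 saturated spots. The number of arrays limits the precision.

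limma 3.58.1 in R 4.3.3 fitted the 4 group means to the 6 samples, with two-sided moderated tests, Benjamini-Hochberg adjustment over all probes tested and a threshold of 0.05. Other steps ran in Python 3.11.15 (numpy 2.4.6, pandas 2.3.3, matplotlib 3.10.9), and they were tested on simulated data. There were 6 comparisons and an F test. Alternatives were 16 arrays as samples, blocks, scalings, background correction, filters and left-out arrays or samples. Arrays that share a replicate number deviated together in few cases (correlations from -0.56 to 0.13 over 24 pairs). Control and depression-susceptible arrays of the same number lie on different slides, so this check cannot show whether the numbers pair them. The files have no mean signal column, so normexp used the median signal.

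The 6 members, the lists and the tests were chosen with earlier results of these data known. Of each list, counts are given and up to 4 called genes with the largest difference are named, taken from depression-susceptible against control or, where fewer than 2 passed there, anxiety-susceptible against control. Fkbp5, Nr3c1 and Nr3c2 are always named. A pathway member named outside this rule is marked in the text.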

Additional observations from a re-analysis of the deposited data

Results flagged for a closer look

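The Tsc22d3 level of 0.715 in depression-susceptible replicate 3 lay below the other 3 arrays of its group, which ran from 0.79 to 0.80, by a gap that is large for the group's range. Of the 24 sets of 4 arrays examined, 6 members in 4 groups, it was the one set apart in this way, and chance alone sets apart about 1 in 20. The array stands on slide 1, and the control arrays ran from 1.34 to 1.39.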

How the results depend on the processing

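Among the alternatives for single members, 580 values kept their direction and their side of the threshold, 55 passed it newly, 29 lost it and 20 turned sign. Nfkbia missed the threshold where a depression-susceptible sample was left out (adjusted p = 0.0639 and 0.0626) and in no other alternative against control. With all 16 arrays as samples, the replicate block gave 26 calls of the glucocorticoid-induced list in depression-susceptible samples, 24 in anxiety-susceptible samples and 34 in insusceptible samples against control (26, 26 and 34 without the block, against 1, 12 and 13 with 6 samples), and 5 members in insusceptible against control with or without it. Both 16-array fits also called 5 members in depression-susceptible against insusceptible, 3 in anxiety-susceptible against insusceptible and 5 in anxiety-susceptible against depression-susceptible, where 6 samples gave 0. These fits count arrays of 1 slide as separate samples. Of the 16 arrays, 6 correlated best with their own replicate number, whereas arrays of different groups on 1 slide correlated at 0.38 to 0.53. Control and depression-susceptible arrays of the same number lie on different slides, so whether the numbers pair them cannot be told. Over all probes, 16 arrays gave 8837 calls in depression-susceptible against control (6 samples 1729), 12758 in anxiety-susceptible against control (5503), 12938 in insusceptible against control (5387), 10967 in depression-susceptible against insusceptible (13), 6468 in anxiety-susceptible against insusceptible (16) and 11151 in anxiety-susceptible against depression-susceptible (48). Normexp called 3540 probes lower and 6128 higher in anxiety-susceptible against control and 3127 lower and 6601 higher in insusceptible against control.

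For depression-susceptible against control, slide as a block called 3574 probes lower and 3077 higher over all probes and gave 20 calls of the list, normexp 3, quantile normalization 2 and only probes well above background on all arrays 4, while the members called numbered 2 without a filter on dim probes. In anxiety-susceptible against control the list gave 7 calls with the percentile over detected probes and 3 without the filter, and in insusceptible against control it gave 8 without the filter, while normexp called 5 members there. In anxiety-susceptible against depression-susceptible, normexp called 3 members, and quantile normalization, the deposited value table and the filter on all arrays 1 each. In depression-susceptible against insusceptible, normexp called 2 and quantile normalization and no filter 1 each. Leaving out an array or sample gave 0 to 5 members in depression-susceptible samples, 2 to 4 in anxiety-susceptible samples and 1 to 3 in insusceptible samples against control, and 0 to 2, 2 to 13 and 0 to 13 calls of the list. The low ends came from leaving out a whole sample.

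Values that turned sign were small. Cdkn1a read 0.1866 in anxiety-susceptible and 0.1954 in insusceptible against control with the percentile over detected probes, 0.0868 and 0.0854 in the value table, 0.0629 and 0.0613 with quantile normalization, and 0.0056 in insusceptible against control without control slide 2. Over the left-out arrays and samples its range was -0.073 to 0.001 in anxiety-susceptible and -0.0565 to 0.0175 in insusceptible against control. Between anxiety-susceptible and insusceptible samples it read 0.0013 (value table), 0.0015 (normexp) and 0.0016 (quantile), and Zbtb16 read 0.02 (value table) and 0.0198 (quantile). Zbtb16 in depression-susceptible against control ran from -0.3186 to 0.1681 over the left-out arrays and samples, with 0.1573 without control slide 2. Tsc22d3 in depression-susceptible against insusceptible read 0.0318 with normexp, and -0.0375 to 0.017 over the left-out arrays and samples. The causes of these shifts were not tested.

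For normexp, 14 spots on 3 arrays with a local background over 10 times the array's median took that median, a choice made after seeing the data. The list counts with slide as a block and the choroid plexus sum without Ttr were added after seeing the data too. Slide as a block cannot be set for the anxiety-susceptible and insusceptible groups, each on its own slide. Zbtb16 is limited by its signal over background, and all results by the 6 samples.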
